A study of Homo sapiens with 5 samples.

Results

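Kinesins are motor proteins that use ATP to walk along or to depolymerise microtubules. The genes described here are those of the deposited count table whose symbol begins with KIF or KIFC and a number, with the light chain genes KLC2 and KLC4 added. This rule gave 40 of the 14042 gene symbols (14084 rows) of the table. The genes KLC1, KIFC1, KIF2B, KIF9, KIF24, KIF25 and KIF28P were not analysed here. By textbook function, 12 members were classed as mitotic, 17 as transport motors or their light chains, and 11 as cilium, Hedgehog or other. KIF2A, which acts at spindle poles and in neurites, was placed in the last of these classes. KIF1BP, which the rule also takes, encodes a protein that binds kinesins and is no motor.

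The study measured ribosome footprints, the stretches of mRNA protected by a translating ribosome, in HAP1, an established human cell line with a nearly haploid genome that derives from a chronic myeloid leukaemia. The groups were wild type cells (2 libraries) and METTL18 knockout cells (3 libraries), both labelled haploid, with no treatment named in the labels for either. The labels name the molecule polyA RNA, although their protocol describes footprints; counts are read here as footprints, and mRNA fragments would make them mRNA levels. METTL18 methylates a histidine of the ribosomal protein RPL3. The labels do not say whether the knockout is 1 clone or whether libraries come from separate cultures, so p-values measure the spread of these libraries alone, part of which may be technical. A footprint count moves with the mRNA level and with the ribosomes on each mRNA, and these were not separated; in such bulk samples fewer cells of a type and less RNA per cell cannot be told apart.

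Mitotic kinesins build the spindle, carry chromosomes and form the midzone where the cell divides, and many of their genes are transcribed mainly late in the cell cycle. Transport kinesins carry mitochondria, lysosomes, vesicles and signalling complexes, many of them in the long axons of neurons; conventional kinesin pairs heavy chains (KIF5A, KIF5B or KIF5C) with light chains that hold the cargo. The kinesins of cilia and of Hedgehog signalling act in or near the primary cilium.

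Library totals were 4887380 to 5302160 counts in wild type cells and 16339574 to 17629199 in knockout cells, so depth runs with the groups. The targeted gene METTL18 had 33 and 32 counts in wild type and 33, 32 and 34 in the more deeply sequenced knockout, or 5.56 and 5.85 against 2.18, 1.97 and 2.16 CPM (counts divided by library size, after TMM scaling). It was lower in all 3 knockout libraries (log2 fold change -1.44, SE 0.247, adjusted p = 2.00e-06, edgeR quasi-likelihood test). Positive log2 fold changes mean higher in knockout cells. The threshold was an adjusted p under 0.05 over all 11335 genes tested, and 37 of the 40 members passed the low-count filter. Most genes differed between these groups: 74.4% of all genes tested passed the threshold, 37.8% as higher and 36.6% as lower, and the groups did not overlap for 83.5% (42.5% higher and 41.0% lower). Of 12 blood-lineage markers listed for the leukaemia of origin, 5 had a row, CD33 was at 0 in every library, both tested genes fell (TAL1, -2.13, and KIT, -0.50), and the summed level was 19.0 to 21.2 CPM in wild type cells and 9.07 to 10.4 CPM in knockout cells.

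With TMM scaling, mitotic members were more often higher than lower and transport members mostly lower in knockout cells. Of the 12 mitotic members tested, 7 were higher, 3 lower and 2 did not pass, with a median log2 fold change of 0.19. KIF2A (-0.58), placed in the last class, and the kinetochore kinesin CENPE (-0.56), outside the rule, were both lower and are not among these 12. Of the 17 transport members tested, 2 were higher, 12 lower and 3 did not pass, with a median of -0.69. The median over all genes tested was 0.0161. Over all 37 members tested, 11 were higher and 21 lower, with a median of -0.51, and the groups did not overlap for 12 as higher and 22 as lower. A count of 12 of 17 lower stands beside 36.6% of all genes, and 7 of 12 higher beside 37.8%. With total counts in place of TMM, 4 mitotic members were higher and 6 lower, and 2 transport members were higher and 15 lower, beside 26.3% of all genes higher and 49.4% lower under that scaling. The mitotic share called lower was then close to that of all genes.

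**Figure D1:**
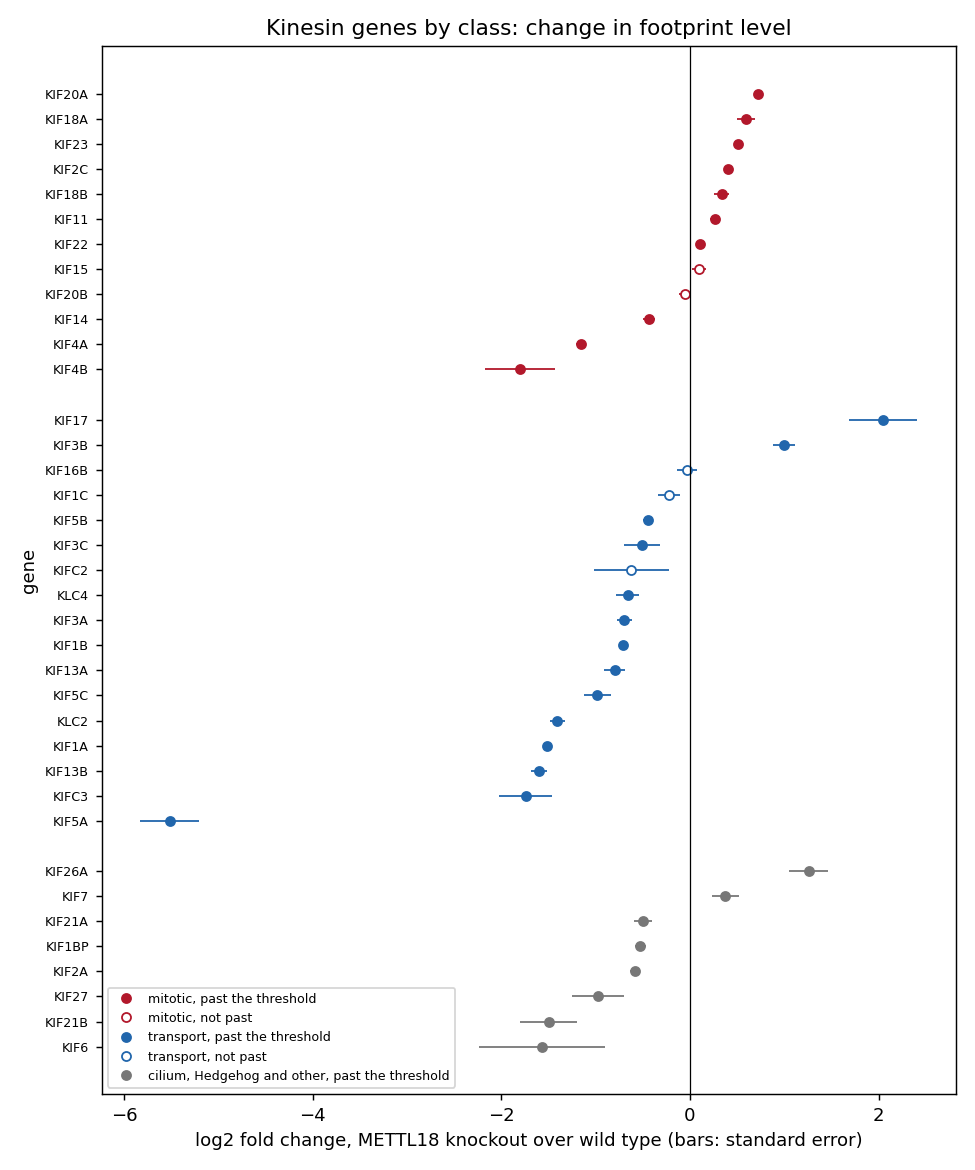
Log2 fold change of knockout over wild type (x axis) for the 37 kinesin genes tested (y axis), grouped by class, with standard errors from the edgeR fit; filled points passed an adjusted p of 0.05. Most mitotic genes lie right of 0 with KIF4A and KIF4B far left, and most transport genes lie left of 0 with KIF17 and KIF3B to the right.

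A change of scaling factors moves all genes by nearly the same amount, so it alters signs and leaves the distance between class medians almost fixed. On total counts the median of all genes moved to -0.26, that of mitotic members to -0.0856 and that of transport members to -0.97. The mitotic median lay 0.17 above that of all genes with TMM, and the transport median differed from it by -0.71. The difference between both class medians was 0.88 and lay between 0.82 and 0.97 over the 13 other fits, of which those with other scaling factors could hardly move it. Kinesin coding sequences are long, with a median of 3044 bases for members against 1433 for all genes tested. Over all genes, the length quartile with the longest coding sequences (2274 bases or more) had a median log2 fold change of -0.21 and the shortest quartile 0.19. The median coding length was 3027 bases for mitotic and 2892 bases for transport members, and the median GC content of the coding sequence 44.1% and 53.8%. The part of length and of GC content in the results was not tested.

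Levels of different genes were compared per coding length, as counts per coding kilobase scaled to the same total in every library (length-scaled level). On this scale all mitotic members took 49.3% and 49.6% of the kinesin total in wild type libraries and 65.6%, 65.2% and 66.2% in knockout libraries. Transport members took 37.8% and 37.9% in wild type cells against 24.7%, 24.7% and 23.6%. The remaining class took 12.7% ± 0.290 (SD, n = 2) against 10.01% ± 0.246 (SD, n = 3). In no class did the groups overlap. These shares are ratios within a library and do not depend on its scaling factor. The summed length-scaled level was lower in knockout cells in both main classes, at 618 ± 16.2 against 534 ± 4.26 for mitotic members and 473 ± 11.9 against 198 ± 5.76 for transport members. As CPM after TMM scaling, the mitotic sum was 1592 ± 44.2 in wild type cells and 1814 ± 6.09 in knockout cells. Whether the mitotic total was higher or lower in knockout cells therefore depends on the scale, and its larger share of the length-scaled kinesin counts does not.

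**Figure D2:**
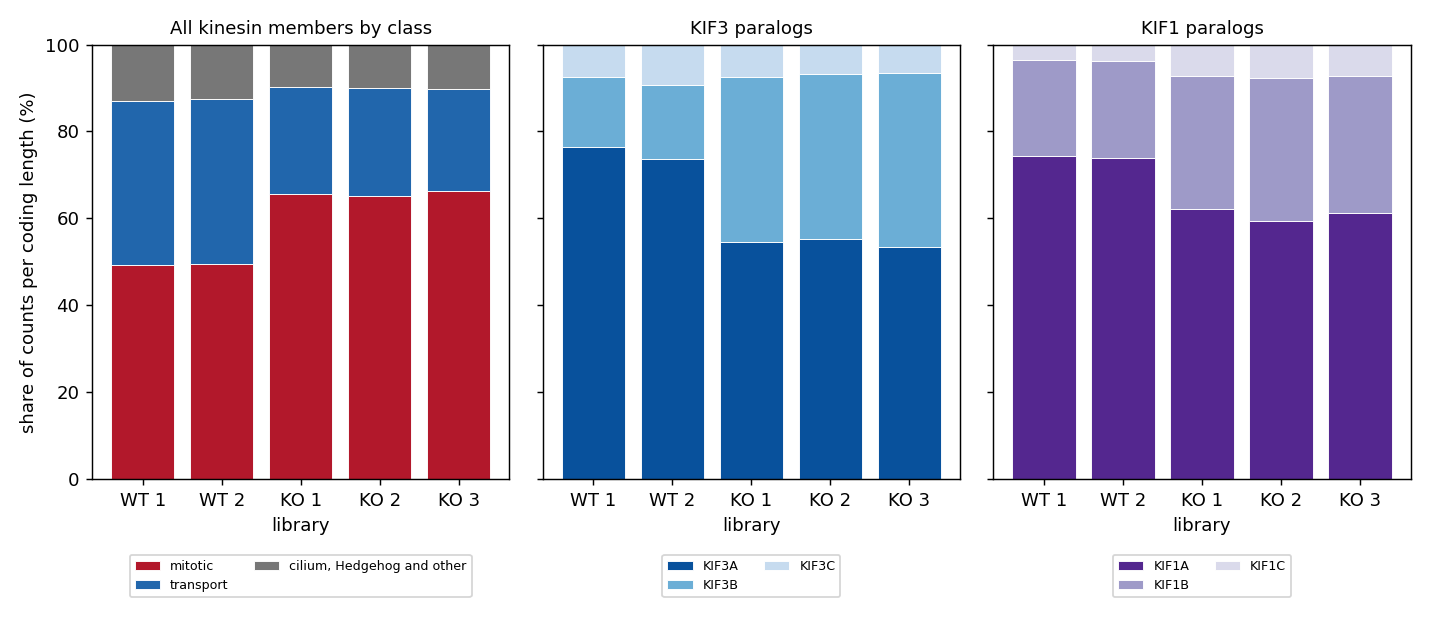
Share of length-scaled counts (y axis, percent) in each library (x axis; WT, wild type; KO, METTL18 knockout) for the classes of all 40 kinesin members, for KIF3A, KIF3B and KIF3C, and for KIF1A, KIF1B and KIF1C. The mitotic share is below 50% in both wild type libraries and above 65% in all knockout libraries, and KIF3A and KIF1A take a smaller share of their families in knockout cells.

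The order of the members changed with the genotype. In the wild type the highest length-scaled levels were those of KIF5B (148 ± 7.61), KIF1A (137 ± 0.00195), KIF22 (119 ± 2.01) and KIF11 (107 ± 4.71). KIF2C (94.6 ± 3.70) and KIF23 (92.9 ± 3.49) followed and did not differ from each other beyond their SD. In the knockout the leading members were KIF23 (97.0 ± 0.993), KIF22 (94.0 ± 3.68), KIF11 (93.7 ± 1.62) and KIF2C (91.8 ± 1.41). KIF23 did not differ from KIF22, nor KIF22 from KIF11, beyond the larger SD. KIF11 and KIF2C differed by slightly more than either SD. KIF5B stood 5th at 79.3 ± 3.28, KIF20A 6th at 71.6 ± 1.08, and KIF1A had gone from 2nd to 9th at 35.2 ± 2.01. All 4 leading members of the knockout were mitotic, and both leading members of the wild type were transport motors. These 4 mitotic members held ranks 3 to 6 in wild type cells, directly behind KIF5B and KIF1A. On this scale KIF22, KIF11 and KIF2C had lower means in knockout than in wild type cells, and KIF23 a higher one.

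**Figure D3:**
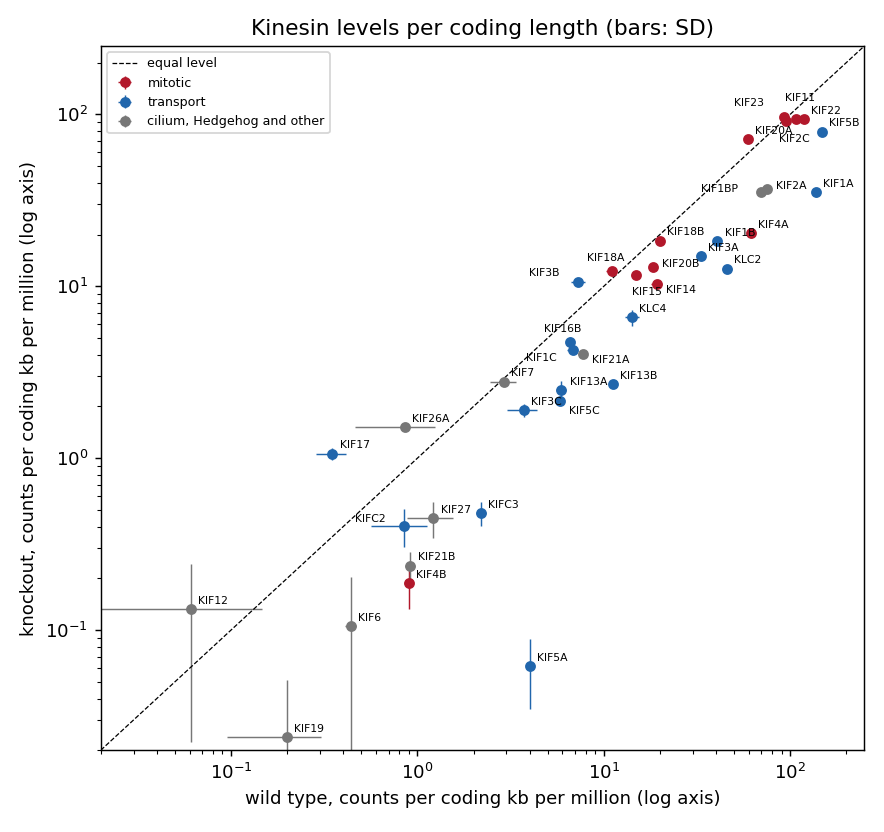
Mean length-scaled level (scaled counts per coding kilobase) in wild type cells (x axis) and the knockout (y axis), both log axes, with SD over 2 and 3 libraries; the dashed line marks equal levels, and KIF26B, at 0 in wild type cells, is not drawn. KIF20A, KIF18A and KIF23 are the mitotic members above the line, transport members lie mostly below it, and KIF5A lies farthest below.

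Of the 7 mitotic motors that were higher, KIF20A had the largest rise. KIF20A, the midzone motor that brings the chromosomal passenger complex to the dividing cell's centre, stood at 137 and 146 CPM in wild type libraries and at 231, 237 and 236 CPM in knockout libraries. All knockout values lay above all wild type values (log2 fold change 0.73, SE 0.0521, adjusted p = 4.12e-16, edgeR quasi-likelihood test). KIF23, the motor subunit of centralspindlin, which bundles the midzone for cytokinesis, stood at 234 and 247 CPM against 346, 341 and 340 CPM. It was higher without overlap (0.51, SE 0.0465, adjusted p = 5.38e-13, edgeR quasi-likelihood test). KIF18A, which damps the movements of chromosomes at the metaphase plate, rose by 0.60, and its relative KIF18B, which limits astral microtubules, by 0.34, a call lost with total counts (0.0649). KIF2C, the microtubule depolymerase that corrects faulty attachments at centromeres, rose by 0.41.

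KIF11, the motor that pushes spindle poles apart and the target of antimitotic inhibitors, stood at 294 and 313 CPM in wild type cells and 365, 360.0 and 368 CPM in knockout cells. It rose by 0.26 (SE 0.0452, adjusted p = 1.99e-06, edgeR quasi-likelihood test). With total counts in place of TMM its log2 fold change was -0.00928 and did not pass. KIF22, the chromosome arm motor and the mitotic member with the highest length-scaled level in wild type cells, stood at 216 and 211 CPM against 237, 222 and 232 CPM. The difference was small (0.11, SE 0.0493, adjusted p = 0.0424, edgeR quasi-likelihood test). Its call was lost with most alternatives, among them without wild type replicate 1 (0.13), wild type replicate 2 (0.0871), METTL18 knockout replicate 1 (0.0826) or METTL18 knockout replicate 3 (0.0998), and with total counts it passed as lower (-0.16). On the length-scaled level it was likewise lower, at 119 ± 2.01 against 94.0 ± 3.68. KIF11 (107 ± 4.71 against 93.7 ± 1.62) and KIF18B (19.9 ± 1.13 against 18.4 ± 0.339) were also lower on that scale. KIF2C had a lower mean there, within its wild type SD (94.6 ± 3.70 against 91.8 ± 1.41). KIF20A, KIF18A and KIF23 were higher on both scales. KIF15, which can take over from KIF11 in holding a bipolar spindle, had a log2 fold change of 0.0975 that did not pass, and KIF20B, a cytokinesis motor, one of -0.0484. With total counts both passed as lower (-0.17 and -0.32).

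KIF4A, KIF4B and KIF14 went the other way. KIF4A, the chromokinesin that works with condensin on chromosome arms and with PRC1 at the midzone, stood at 206 and 203 CPM in wild type cells and 98.2, 89.02 and 89.1 CPM in knockout cells. The groups lay far apart (log2 fold change -1.15, SE 0.0547, adjusted p = 4.23e-22, edgeR quasi-likelihood test). The length-scaled ratio of KIF20A to KIF4A, neighbours in midzone function, went from 0.961 ± 0.0559 (SD, n = 2) to 3.53 ± 0.245 (SD, n = 3). KIF14, the cytokinesis motor that binds citron kinase, fell by 0.44 on the log2 scale. KIF4B stood at 2.86 and 3.11 CPM in wild type cells and at 1.06, 0.922 and 0.571 CPM in knockout cells, from 17 and 17 counts against 16, 15 and 9 (log2 fold change -1.80, SE 0.369, adjusted p = 3.50e-05, edgeR quasi-likelihood test).

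KIF4B (hg38, chromosome 5, 155013755 to 155018132, plus strand) has 1 exon and is a retrocopy of KIF4A (chromosome X, 70290090 to 70420832, plus strand, 31 exons). Their coding sequences were 95.9% identical over 3699 aligned bases, and 68.2% of the KIF4A windows of 28 bases and 68.3% of those of KIF4B were found in the coding sequence of that gene alone among the genes of the table. No source used here states how reads shared by both were counted, which makes the KIF4B value uncertain. Its length-scaled level was 0.0146 ± 0.00105 of the KIF4A level in wild type cells and 0.00916 ± 0.00240 in knockout cells. The first 90 coding bases of GENCODE release 29 show how little separates them, with the 2 differing bases in capitals:
KIF4A: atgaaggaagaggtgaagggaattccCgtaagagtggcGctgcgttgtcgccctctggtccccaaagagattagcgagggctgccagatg
KIF4B: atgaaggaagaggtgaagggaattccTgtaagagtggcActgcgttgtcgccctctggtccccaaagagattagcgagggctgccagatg
Among the other members the lowest such share was 99.7%, for KLC2.

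**Figure D4:**
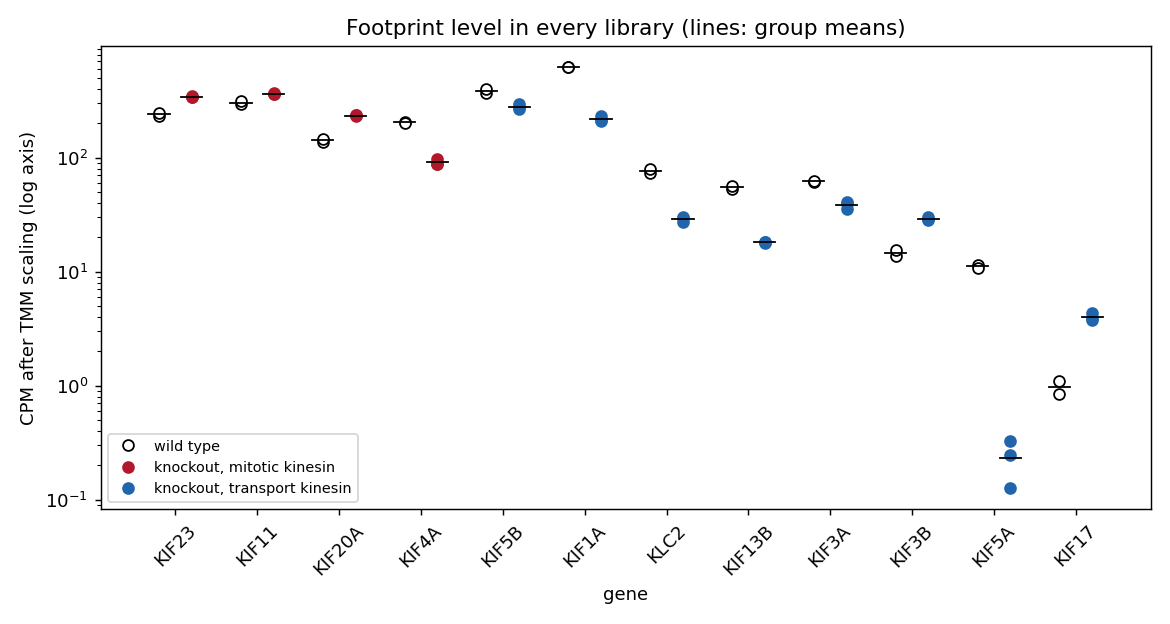
CPM after TMM scaling (y axis, log) of 12 kinesin genes (x axis) in each library; open circles are wild type, filled circles knockout, and lines group means. KIF20A, KIF23, KIF11, KIF3B and KIF17 are higher in every knockout library, and KIF4A, KIF5B, KIF1A, KLC2, KIF13B, KIF3A and KIF5A lower.

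The mitotic members share promoter letters that the rule did not use. Genes of late cell cycle often carry a short element known as CHR near their start, of the form TTTGAA or TTCGAA, and a CCAAT box before it. These letters were searched on both strands in the 100 bases before and 30 bases after each start in RefSeq promoters (GRCh38.p14), which matched 30 members. The transport members KIF5A, KIF13B, KIFC2, KIFC3, KLC2 and KLC4 had no matched promoter and are not in these counts. A TTTGAA or TTCGAA was found for 10 of 12 mitotic members, 0 of 11 transport members, 0 of 7 others and 6.50% of all 35116 promoters. A CCAAT was found for 10 of 12 mitotic members, 2 of 11 transport members, 3 of 7 others and 20.1% of all promoters; 9 of 12 mitotic members held both, against 1.54% of all promoters. Of the 10 mitotic members with TTTGAA or TTCGAA, 5 were higher, 3 lower and 2 did not pass; KIF20A and KIF2C, without it in this window, were both higher. The mitotic matches include KIF4A and its retrocopy KIF4B, whose stretches around both motifs are near copies and so no separate instances. A match is a description of the letters and not a binding site.

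Stretches are shown for KIF23, KIF11 and KIF22, which were higher with TMM scaling. The directions of KIF11 and KIF22 depended on the scale, and KIF22 was the mitotic motor with the highest length-scaled level in wild type cells. KIF20A, which rose without a match to the first motif, follows. After it come both genes of the KIF4 pair, which fell, and the 2 most abundant transport motors. All are 5′ to 3′ in the sense of the gene, with both motifs in capitals (TTCAAA and ATTGG are the reverse complements, and TTCGAA is its own):
KIF23 (chr15:69414249-69414378, plus strand): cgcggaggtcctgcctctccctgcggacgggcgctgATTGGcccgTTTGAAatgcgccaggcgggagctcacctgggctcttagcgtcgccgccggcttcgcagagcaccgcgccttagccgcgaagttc
KIF11 (chr10:92593030-92593159, plus strand): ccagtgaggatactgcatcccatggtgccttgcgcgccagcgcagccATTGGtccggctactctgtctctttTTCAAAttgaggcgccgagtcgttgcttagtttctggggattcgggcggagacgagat
KIF22 (chr16:29790651-29790780, plus strand): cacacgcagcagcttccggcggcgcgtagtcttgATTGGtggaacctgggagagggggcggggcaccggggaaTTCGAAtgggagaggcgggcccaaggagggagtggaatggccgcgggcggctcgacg
KIF20A (chr5:138179012-138179141, plus strand): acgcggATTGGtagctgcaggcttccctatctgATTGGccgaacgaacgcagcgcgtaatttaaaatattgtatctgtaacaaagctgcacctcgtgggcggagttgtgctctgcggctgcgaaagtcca
KIF4A (chrX:70290004-70290133, plus strand): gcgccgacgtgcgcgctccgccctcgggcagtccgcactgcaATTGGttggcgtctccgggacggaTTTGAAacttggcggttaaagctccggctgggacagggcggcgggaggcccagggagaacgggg
KIF4B (chr5:155013655-155013784, plus strand): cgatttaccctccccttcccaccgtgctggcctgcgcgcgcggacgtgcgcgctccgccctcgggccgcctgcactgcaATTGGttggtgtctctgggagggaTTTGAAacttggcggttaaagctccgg
KIF5B (chr10:32056396-32056525, minus strand): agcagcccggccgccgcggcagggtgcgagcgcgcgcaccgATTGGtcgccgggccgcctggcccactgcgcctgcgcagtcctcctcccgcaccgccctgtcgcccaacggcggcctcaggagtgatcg
KIF1A (chr2:240820190-240820319, minus strand): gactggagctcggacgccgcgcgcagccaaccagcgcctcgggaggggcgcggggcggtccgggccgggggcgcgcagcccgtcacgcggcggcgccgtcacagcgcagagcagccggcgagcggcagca
Both genes of the KIF4 pair hold a CCAAT and a TTTGAA. KIF5B holds a CCAAT alone, and KIF1A neither motif in this window.

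Heavy chains of conventional kinesin were lower in knockout cells. KIF5B, the broadly expressed heavy chain, carries mitochondria and lysosomes and was the transport member with the highest length-scaled level in both groups. It stood at 370 and 397 CPM in wild type cells and 281, 294 and 267 CPM in knockout cells (log2 fold change -0.45, SE 0.0470, adjusted p = 2.80e-11, edgeR quasi-likelihood test). KIF5C, a neuronal heavy chain, fell by 0.98 on the log2 scale. KIF5A, the neuronal heavy chain known from hereditary spastic paraplegia, changed most of all members. It (chromosome 12, 57549998 to 57586632, plus strand) had 68 and 59 counts in wild type cells and 5, 4 and 2 in knockout libraries, or 11.5 and 10.8 CPM against 0.330, 0.246 and 0.127 CPM. The highest knockout value was far below the lowest wild type value (log2 fold change -5.51, SE 0.311, adjusted p = 1.63e-19, edgeR quasi-likelihood test). KIF5B made up 93.8% ± 0.394 (SD, n = 2) of the length-scaled KIF5 level in wild type cells and 97.3% ± 0.0786 (SD, n = 3) in knockout cells.

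The light chains KLC2 and KLC4 fell with the heavy chains, and KLC1 was not analysed here. KLC2 stood at 73.6 and 79.9 CPM against 29.98, 27.3 and 29.6 CPM, with no overlap (log2 fold change -1.40, SE 0.0767, adjusted p = 5.22e-20, edgeR quasi-likelihood test). KLC4 fell by 0.66 on the log2 scale. KLC3, a light chain outside the rule, also fell (-1.52).

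Vesicle motors of the KIF1 and KIF13 families made up much of the transport class and were mostly lower. KIF1A (chromosome 2, 240713834 to 240820219, minus strand), the axonal motor of synaptic vesicle precursors, stood at 626 and 625.5 CPM in wild type cells, the highest CPM of all members there. In the knockout it stood at 233, 210.1 and 216 CPM (log2 fold change -1.51, SE 0.0446, adjusted p = 2.23e-29, edgeR quasi-likelihood test). KIF1B, a motor of mitochondria and synaptic vesicle precursors, fell by 0.70, and KIF1C, a motor of vesicles between Golgi and cell periphery, had a log2 fold change of -0.22 (adjusted p = 0.0863, edgeR quasi-likelihood test). KIF1A took 74.2% ± 0.329 (SD, n = 2) of the length-scaled KIF1 level in wild type cells and 60.9% ± 1.36 (SD, n = 3) in knockout cells, and KIF1B 22.1% ± 0.0813 against 31.7% ± 1.07. KIF13B, a vesicle motor that binds the scaffold protein DLG1, stood at 53.5 and 56.5 CPM against 18.4, 18.0 and 18.1 CPM. It fell by 1.60 on the log2 scale (SE 0.0871, adjusted p = 4.80e-20, edgeR quasi-likelihood test), and KIF13A, a motor of endosomes, by 0.80. KIF16B, an early endosome motor, stood at 23.3 ± 1.11 CPM (SD, n = 2) and 22.9 ± 1.77 CPM (SD, n = 3), a difference that did not pass (log2 fold change -0.0301).

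The heterotrimeric motor of intraflagellar transport, made of KIF3A, KIF3B and KIFAP3, did not move as one. KIF3A stood at 61.8 and 63.1 CPM in wild type cells and 39.0, 41.3 and 35.5 CPM in knockout cells (log2 fold change -0.69, SE 0.0789, adjusted p = 2.35e-10, edgeR quasi-likelihood test). KIF3B, its partner, stood at 13.8 and 15.6 CPM against 28.99, 30.3 and 28.3 CPM (0.99, SE 0.115, adjusted p = 3.52e-10, edgeR quasi-likelihood test). The length-scaled ratio of KIF3B to KIF3A was 0.209 and 0.231 in wild type libraries and 0.696, 0.687 and 0.747 in knockout libraries. KIF3A thus stayed the more abundant of the pair by footprints in all 5 libraries, with a smaller margin in knockout cells. KIFAP3, the adaptor subunit, fell (-0.54), and KIF3C, the neuronal alternative to KIF3B, fell by 0.51 on the log2 scale, a call lost without wild type replicate 2 (-0.32) and with DESeq2 (-0.53). KIF17, a motor of dendrites and cilia, was the member with the largest rise. It had 5 and 6 counts in wild type cells and 66, 64 and 59 in knockout cells, or 0.842 and 1.10 against 4.36, 3.93 and 3.74 CPM (2.04, SE 0.361, adjusted p = 3.28e-06, edgeR quasi-likelihood test).

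The minus-end directed motors of the transport class were scarce. KIFC3, a motor of apical vesicles and of adherens junction microtubules, stood at 4.71 and 5.12 CPM in wild type cells and 1.39, 1.29 and 1.71 CPM in knockout cells, without overlap (log2 fold change -1.74, SE 0.281, adjusted p = 6.19e-07, edgeR quasi-likelihood test). KIFC2 had 8 to 24 counts per library and did not pass (-0.62).

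Kinesins outside both classes were mostly lower. Of 11 members 8 were tested, of which 2 were higher and 6 lower with TMM scaling, beside 37.8% of all genes higher and 36.6% lower. KIF7, the regulator of Hedgehog signalling at the cilium tip, was higher by 0.38 (adjusted p = 0.0203, edgeR quasi-likelihood test), a call lost under 5 alternatives: without wild type replicate 2 (0.22), without METTL18 knockout replicate 1 (0.33), with total counts (0.10), with thinned knockout libraries (0.26) and with DESeq2 (0.37). Its paralog KIF27 fell by 0.98 on the log2 scale, a call lost without wild type replicate 2 (-0.68). KIF26A, a kinesin without motor ATPase activity, stood at 5.72 and 2.93 CPM against 10.1, 11.1 and 10.3 CPM (1.26, SE 0.205, adjusted p = 7.51e-07, edgeR quasi-likelihood test). The wild type libraries differed from each other, and the value was 1.84 without wild type replicate 1 and 0.87 without wild type replicate 2. KIF2A, a depolymerase of spindle poles and of growing neurites, fell by 0.58. Counted as mitotic, it would add to the mitotic members called lower. KIF1BP fell by 0.53 and KIF21A, which restrains microtubule growth at the cell cortex, by 0.49. Its paralog KIF21B stood at 3.87 and 4.21 CPM against 1.39, 1.17 and 1.71 CPM (-1.50, SE 0.302, adjusted p = 2.68e-05, edgeR quasi-likelihood test).

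The remaining members had few footprints. KIF6 had 6 and 5 counts in wild type cells and 1, 4 and 10 in knockout cells, or 1.01 and 0.915 against 0.0660, 0.246 and 0.634 CPM (log2 fold change -1.57, SE 0.670, adjusted p = 0.0334, edgeR quasi-likelihood test). It no longer passed without wild type replicate 1 (-1.50), wild type replicate 2 (-1.64), METTL18 knockout replicate 1 (-1.13) or METTL18 knockout replicate 2 (-1.41) or with DESeq2 (-1.62), and without METTL18 knockout replicate 3 the value was -2.52. KIF12 (1 and 0 counts against 2, 8 and 2), KIF19 (2 and 4 against 3, 0 and 1) and KIF26B (0 and 0 against 0, 1 and 2) did not pass the low-count filter and were not tested. Both groups of KIF26B were at or under 3 counts, so no fold is given.

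Partners of mitotic kinesins were more often higher, and cargo adaptors more often lower. Of 17 measured proteins that recruit or work beside mitotic kinesins, 11 were higher, 4 lower and 2 did not pass, with a median log2 fold change of 0.34. ANLN, the cytokinesis scaffold (1.90), INCENP, of the chromosomal passenger complex (0.85), TACC3 (0.61) and NUSAP1 (0.52), both spindle microtubule proteins, rose. CENPE, the kinesin of kinetochores whose symbol the rule does not take, is on this list and fell (-0.56). Counted as mitotic, CENPE would add to the mitotic members called lower. Within the passenger complex CDCA8 rose (0.66), and AURKB (-0.23) and BIRC5 (-0.29) fell. Of 23 cell cycle genes of late G2 and mitosis that are no kinesins, 15 were higher, 5 lower and 3 did not pass, with a median of 0.29. CENPA (1.505), DLGAP5 (0.67) and CCNB1 (0.59) rose and TOP2A (-1.11) fell. With total counts, 8 of the partners were higher and 6 lower, and 9 of the cell cycle genes were higher and 8 lower, beside 26.3% and 49.4% of all genes.

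Of 22 adaptors and activators of transport kinesins, 2 were higher, 16 lower and 4 did not pass, with a median of -0.58. PLEKHM2, an adaptor of kinesin on lysosomes (-1.12), RHOT1, which anchors motors on mitochondria (-0.93), and the scaffold SPAG9 (-0.61) fell. TRAK1 (0.49) and RHOT2 (0.23), also of the mitochondrial motor complex, were the 2 that rose, and neither passed with total counts (0.22 and -0.0412), where 0 were higher and 19 lower. Dynein, the motor of the opposite direction, and its cofactors were lower more often than higher. Of 25 genes, 4 were higher, 13 lower and 8 did not pass, with a median of -0.30, and with total counts 2 were higher and 20 lower. The heavy chain DYNC1H1 fell from 830.4 to 403 CPM (-1.04), and the cargo adaptors HOOK1 (-2.93) and HOOK3 (-1.10) and the subunit DCTN6 (-0.89) fell too. The counts with TMM stand beside 37.8% of all genes higher and 36.6% lower, and those with total counts beside 26.3% and 49.4%.

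Several transport members are best known from neurons, so neuronal markers were read beside them. Of 12 listed, all had a row and 6 were tested: MAP2 (-3.91), ELAVL3, SYP (-3.15), SYT1 (-1.06) and RBFOX3 (-2.62) fell, and TUBB3 rose (3.55). ELAVL3 had 10 and 7 counts in wild type cells and 0 in all 3 knockout libraries, so no fitted value is given. The summed level of the list was 56.5 to 63.0 CPM in wild type cells and 359 to 387 CPM in knockout cells, of which TUBB3 made up 30.8 and 361 CPM on average. Markers of ciliated cells were at or near 0: 7 of 10 had a row, none passed the low-count filter, FOXJ1 was at 0 in every library, and their sum was at most 2.01 CPM. Of the epithelial list 3 of 5 tested rose and 1 fell, among them CLDN7 (4.67), ESRP1 (-2.48) and CDH1, which had 1 and 0 counts against 198, 187 and 197, and of the mesenchymal list 4 of 5 tested rose and 1 fell, among them VIM (3.05) and FN1 (-0.73). Their summed levels were 193 to 203 against 206 to 209 CPM and 426 to 442 against 1354 to 1407 CPM. The marker counts with TMM stand beside 37.8% of all genes higher and 36.6% lower. With total counts, 2 of the epithelial genes were higher and 1 lower, and 3 of the mesenchymal genes were higher and 1 lower. Of the neuronal genes 1 was higher and 5 lower there, and the shares of all genes were 26.3% and 49.4%. The part of these marker changes in the kinesin results was not tested.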

How the data were processed

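The data are ribosome profiling libraries of HAP1 cells (wild type, n = 2; METTL18 knockout, n = 3). The authors deposited a single table of unnormalized counts with 14084 transcripts and their gene symbols. Bowtie and the build hg38 are named, per the submitters' processing notes. No source used here names the counting tool, the annotation or the handling of reads with several matches. Whether duplicate reads were removed is not stated either.

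Sample titles gave the groups. The test was edgeR's robust quasi-likelihood test (edgeR 4.0.16, R 4.3.3) with group as its term, after filterByExpr (minimum count 10, minimum total 15) and TMM scaling (factors 1.12 for wild type, 0.923 to 0.932 for knockout), with Benjamini-Hochberg adjustment over 11335 genes. The script was tested on simulated data. GENCODE release 29 gave coordinates and coding lengths, for 13968 rows. The members and lists were chosen with earlier results of these data known. Values in every library are given for METTL18, called members with a fold of at least 2, the most abundant member per class, and members at 0 in a group; for KIF20A, KIF23, KIF11, KIF3A and KIF3B this was chosen after their values were seen. Of other lists, up to 4 genes with the smallest adjusted p, CENPE and KIFAP3 were named; the further genes of those lists were chosen after their values were seen. A gene that this rule names is not reported here. Alternatives were other scaling factors, other filters, DESeq2 1.42.0, a replicate block, thinned knockout libraries, each library left out, and other class borders.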

Additional observations from a re-analysis of the deposited data

How the results depend on the processing

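Of 469 values of single members under an alternative, 434 kept their direction and side of the threshold, 23 lost the call, 6 gained one and 6 changed sign. Total counts in place of TMM shifted all genes down, to a median of -0.26. It turned the mitotic median to -0.0856, KIF11 to -0.00928, KIF15 to -0.17 and KIF22 to -0.16. KIF16B, not past the threshold, turned to 0.0226 with the replicate block, 0.0198 without wild type replicate 1 and 0.0136 without METTL18 knockout replicate 3, in a range of -0.0947 to 0.0198 over the libraries left out. With total counts the transport median was -0.97, 7 kinesins were higher, and 4 mitotic members were higher and 6 lower. The mitotic median was 0.14 with upper-quartile factors, 0.21 with no low-count filter, 0.20 with a mean CPM of at least 10, where 1 transport member was higher, and 0.11 with KIF2A counted as mitotic. Leaving out each library gave a mitotic median of 0.17 to 0.22 and a transport median of -0.75 to -0.64. METTL18 and the other counts of calls stayed within their limits under all alternatives that gave them. The limits for counts were wide. They took as unchanged the 2982 genes higher and 5597 lower with total counts, against 4288 and 4143 with TMM. METTL18 was not tested at a mean CPM of at least 10. With the replicate block the counts were 11 kinesins higher and 21 lower, as without it, and the mitotic median was 0.18 and the transport median -0.64. The sample titles do not say whether replicate numbers pair libraries. Same-numbered libraries deviated from their group means with correlations of 0.00853 and 0.0231. These values cannot exclude a small shared effect, since counting noise enters every deviation and those of the 2 wild type libraries mirror each other. Members with under 35 counts in a wild type library (KIF6, KIF26A, KIF27, KIF21B, KIFC2, KIFC3, KIF17, KIF4B) are those where depth limits precision most.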
